A study of Mus musculus with 2 samples.

Results

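The genes through which nitric oxide relaxes smooth muscle were followed in jejunal smooth muscle with *Dnmt1* (*Dnmt1*-WT) and after its deletion (*Dnmt1*-KO). They were chosen by symbol as *Gucy1a3*, *Gucy1b3*, *Prkg1*, *Pde5a*, *Pde3a*, *Mrvi1* and *Vasp*, and all 7 were among the 18159 gene symbols of the mRNA-seq table. Each genotype is represented by 1 library of C57BL/6 mice at an age of 15 days. The labels give both libraries the transgene Tg(Myh11-cre,-EGFP)2Mik and also the alleles Dnmt1lox/lox, so that Cre recombinase and eGFP, driven by the *Myh11* promoter of smooth muscle cells, are shared by both genotypes. The free-text description names the *Dnmt1* deletion for both, whereas the title and the genotype label separate Dnmt1 WT from Dnmt1 KO and were followed here. The study describes *Dnmt1*-WT mice by the Cre-eGFP transgene alone and mentions no floxed alleles for them. The tissue is the muscle layer peeled from the mucosa of several animals of both sexes, and how their RNA was combined is not stated. Nerve, endothelial and immune cells of this layer are not expected to use the *Myh11* promoter or to lose *Dnmt1*. Its level in single cell types was not measured here.

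Nitric oxide released by enteric neurons enters smooth muscle cells and binds the heme group of soluble guanylate cyclase, a pair of an alpha and a beta subunit, which then makes cGMP. The cyclic nucleotide activates cGMP-dependent protein kinase, whose substrates lower the calcium that reaches the contractile apparatus, and phosphodiesterases end the signal. In the gut this pathway serves the inhibitory motor innervation that lets a segment relax ahead of its content. Interstitial cells of Cajal, the pacemaker cells between nerve and muscle, also carry the cyclase and the kinase.

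Values are FPKM, fragments scaled to transcript length and to the size of the library, and comparisons are the plain ratio of *Dnmt1*-KO to *Dnmt1*-WT. Because each genotype has 1 library, no spread between replicates exists, no test was possible and every difference given here is without a replicate check. Fragment counts behind single genes are not analysed here, and therefore no counting interval is given. *Dnmt1* itself was listed at 11.58 FPKM in *Dnmt1*-WT and 7.58 FPKM in *Dnmt1*-KO, a value that also takes in exons outside the deleted part and cells without Cre. All 12 smooth muscle markers were present in both libraries, with a sum of 25616 FPKM in *Dnmt1*-WT and 17269 FPKM in *Dnmt1*-KO.

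The 7 genes lie on 4 chromosomes of GRCm38. Both cyclase subunits are neighbors on the minus strand of chromosome 3, *Gucy1b3* (named Gucy1b1 in GENCODE) from 82032006 to 82074689 and *Gucy1a3* (Gucy1a1) from 82092427 to 82145789, with 17737 bases and no protein-coding gene between them. *Pde5a* is further along chromosome 3, from 122728947 to 122859374 on the plus strand, and *Pde3a* is on chromosome 6 from 141249269 to 141507448. *Mrvi1*, from 110868266 to 110982461, and *Vasp*, from 19256929 to 19271817, are both on the minus strand of chromosome 7. *Prkg1*, on chromosome 19 from 30564489 to 31765033, spans 1200545 bases, the longest of the 7. The exons of *Mrvi1* overlap those of the antisense gene *Gm16336*, which was listed at 0.41 FPKM in *Dnmt1*-WT and 0.05 FPKM in *Dnmt1*-KO, and reads of such partners cannot be told apart without strand. The exons of *Pde5a* overlap the antisense transcript *4930447N08Rik*, listed at 0 in both libraries, and those of *Pde3a* the antisense gene *Gm28523*, which has no row of its own.

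DNMT1 copies methylation at CpG sites, so the CpG content upstream of the genes is shown for the cyclase pair, for *Pde5a* and *Mrvi1*, whose levels were close to or below 0.5 of *Dnmt1*-WT, and for *Vasp*, whose level differed least. The sequences come from the 250 bases before 1 RefSeq start site of each gene (build GRCm38.p6), 5′ to 3′ on the strand of the gene, and capitals mark CpG sites. Bases that GENCODE annotates as exon are left out, which leaves 111 bases for *Gucy1a3* and 39 for *Pde5a* and the whole window for the other 3 genes.
Gucy1a3 (Gucy1a1), chr3:82145790-82145900, minus strand: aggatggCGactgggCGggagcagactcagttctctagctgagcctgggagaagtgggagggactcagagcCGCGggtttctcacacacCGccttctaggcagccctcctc
Gucy1b3 (Gucy1b1), chr3:82074712-82074961, minus strand: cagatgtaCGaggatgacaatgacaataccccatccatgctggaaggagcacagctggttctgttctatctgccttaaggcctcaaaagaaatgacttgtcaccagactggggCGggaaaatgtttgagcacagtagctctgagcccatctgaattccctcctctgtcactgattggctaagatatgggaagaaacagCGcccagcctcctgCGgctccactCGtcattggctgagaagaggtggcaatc
Pde5a, chr3:122728908-122728946, plus strand: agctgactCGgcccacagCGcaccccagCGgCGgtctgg
Mrvi1, chr7:110982462-110982711, minus strand: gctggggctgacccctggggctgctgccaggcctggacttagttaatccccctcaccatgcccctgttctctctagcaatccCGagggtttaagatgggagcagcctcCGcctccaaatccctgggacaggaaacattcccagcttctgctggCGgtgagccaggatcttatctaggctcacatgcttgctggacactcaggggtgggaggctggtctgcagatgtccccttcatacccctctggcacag
Vasp, chr7:19271855-19272104, minus strand: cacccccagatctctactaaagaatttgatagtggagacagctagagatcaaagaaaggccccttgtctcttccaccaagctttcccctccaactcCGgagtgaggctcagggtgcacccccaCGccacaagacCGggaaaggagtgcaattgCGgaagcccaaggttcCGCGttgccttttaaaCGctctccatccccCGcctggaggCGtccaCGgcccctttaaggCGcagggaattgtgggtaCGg

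Entries were found for 6 of the 7 genes, with 9 start sites in all, and *Pde3a* had none. The CpG and motif counts that follow are for whole windows of 250 bases. The window of *Pde5a* held 22 CpG sites, more than 85.2% of the 32851 windows of the same length, and that of *Gucy1b3* held 5, more than 44.4% of them. These are the genes with the lowest ratios, which therefore have CpG numbers on either side of the median of 6. The window of *Vasp* and the more distal window of *Gucy1a3* held 12 each, the other window of *Gucy1a3* held 10, the windows of *Mrvi1* held 3 and 1, and those of *Prkg1* held 16 and 9. The GC box, searched as GGGCGG on both strands, was found in the windows of *Pde5a* and *Gucy1b3*, in both windows of *Prkg1* and in the distal window of *Gucy1a3*, and 32.7% of all windows hold it. The CArG box, the motif read by SRF, was in none of the 9 windows and is in 1.47% of all windows, and this says only that the exact motif is not within these 250 bases. CpG methylation was not analysed here.

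Each of the 7 genes had a lower value in *Dnmt1*-KO than in *Dnmt1*-WT, and their summed expression was 387.62 FPKM in *Dnmt1*-WT and 234.69 FPKM in *Dnmt1*-KO. A ratio below 1 was found for 49.1% of the 16102 genes above 0 FPKM in both libraries. The ratio was at or below 0.5 for 2 members, *Pde5a* and *Gucy1b3*, against 4.98% of all genes, and at or below 1/1.5 for 5 members, against 12.6%. It was 1.5 or more for 0 members, against 19.7% of all genes. Among the 6505 genes with a mean of 10 FPKM or more, a level that all 7 members reach, 52.8% had a ratio below 1, 2.54% one at or below 0.5 and 9.27% one at or below 1/1.5, while 9.87% reached 1.5 and 4.14% reached 2. The median log2 ratio was -0.82 for the members and 0.01 for all genes. In tissue of mixed cells, fewer cells of a type and less RNA per cell cannot be told apart.

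**Figure D1:**
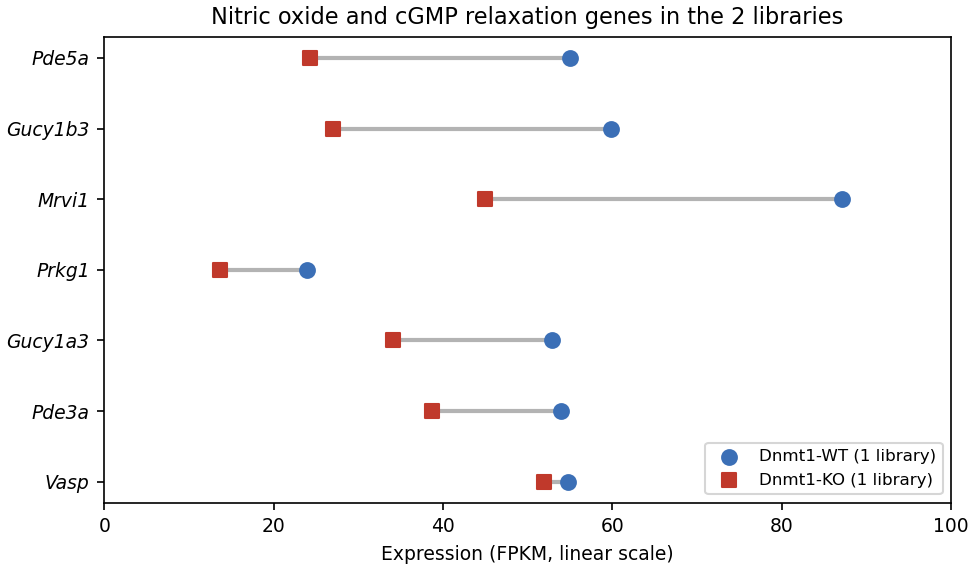
Expression in FPKM (linear axis) of the 7 genes in the *Dnmt1*-WT library (circles) and the *Dnmt1*-KO library (squares), ordered by their ratio. Each *Dnmt1*-KO square is to the left of its circle, with the widest gap for *Mrvi1*, 87.13 against 45.01 FPKM, and the narrowest for *Vasp*, 54.77 against 51.96 FPKM.

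The receptor for nitric oxide was lower in both of its subunits. *Gucy1b3* encodes the beta subunit, which binds the heme, and was listed at 59.91 FPKM in *Dnmt1*-WT and 27.02 FPKM in *Dnmt1*-KO, a ratio of 0.451. *Gucy1a3* encodes the alpha subunit and was listed at 52.85 FPKM in *Dnmt1*-WT and 34.08 FPKM in *Dnmt1*-KO, a ratio of 0.645. The loss was thus 54.9% for the beta and 35.5% for the alpha subunit. In *Dnmt1*-WT the alpha transcript was 0.882 times the beta transcript per length, and in *Dnmt1*-KO it was 1.26 times. This comparison within a library does not depend on how the libraries are scaled to each other. The alternative subunits *Gucy1a2* (1.22 and 1.12 FPKM in *Dnmt1*-WT and *Dnmt1*-KO) and *Gucy1b2* (0.22 and 0.23 FPKM), named here after their values were seen, were far below the main pair in both libraries.

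*Prkg1*, which encodes cGMP-dependent protein kinase I, was the least abundant of the 7 in both libraries. It was listed at 23.98 FPKM in *Dnmt1*-WT and 13.62 FPKM in *Dnmt1*-KO, a ratio of 0.568 and a loss of 43.2%. In the order of all 18159 genes it was number 3102 in *Dnmt1*-WT and number 5081 in *Dnmt1*-KO.

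Of the phosphodiesterases, *Pde5a*, whose enzyme is specific for cGMP and is the target of sildenafil, had the lowest ratio of the 7 genes. It was listed at 55.04 FPKM in *Dnmt1*-WT and 24.3 FPKM in *Dnmt1*-KO, a ratio of 0.441. The ratio of *Pde5a* to *Gucy1b3* was 0.919 in *Dnmt1*-WT and 0.899 in *Dnmt1*-KO, so the transcripts of the main cGMP-degrading enzyme and of the cyclase beta subunit were lower by nearly equal factors. *Pde3a*, whose enzyme degrades cAMP and is inhibited by cGMP, was listed at 53.94 FPKM in *Dnmt1*-WT and 38.7 FPKM in *Dnmt1*-KO, a ratio of 0.717. Both phosphodiesterase transcripts were at about the same level in *Dnmt1*-WT, where *Pde3a* was 0.98 times *Pde5a*, and *Pde3a* was 1.59 times *Pde5a* in *Dnmt1*-KO.

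The kinase substrates differed from each other. *Mrvi1* encodes IRAG, which binds the kinase and the IP3 receptor at the endoplasmic reticulum and restrains calcium release. It was the most abundant of the 7 genes in *Dnmt1*-WT, at 87.13 FPKM, and was listed at 45.01 FPKM in *Dnmt1*-KO, a ratio of 0.517. Relative to *Prkg1* it was 3.63 times as high in *Dnmt1*-WT and 3.30 times in *Dnmt1*-KO. *Vasp* encodes an actin-associated protein made in many cell types, platelets and leukocytes included. It was listed at 54.77 FPKM in *Dnmt1*-WT and 51.96 FPKM in *Dnmt1*-KO, a ratio of 0.949, and 45.2% of the genes with a mean of 10 FPKM or more had a lower one. For *Pde5a* and *Gucy1b3* that share was 1.48% and 1.63%, for *Mrvi1* 3.01%, for *Prkg1* 4.29%, for *Gucy1a3* 7.61% and for *Pde3a* 13.5%.

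**Figure D2:**
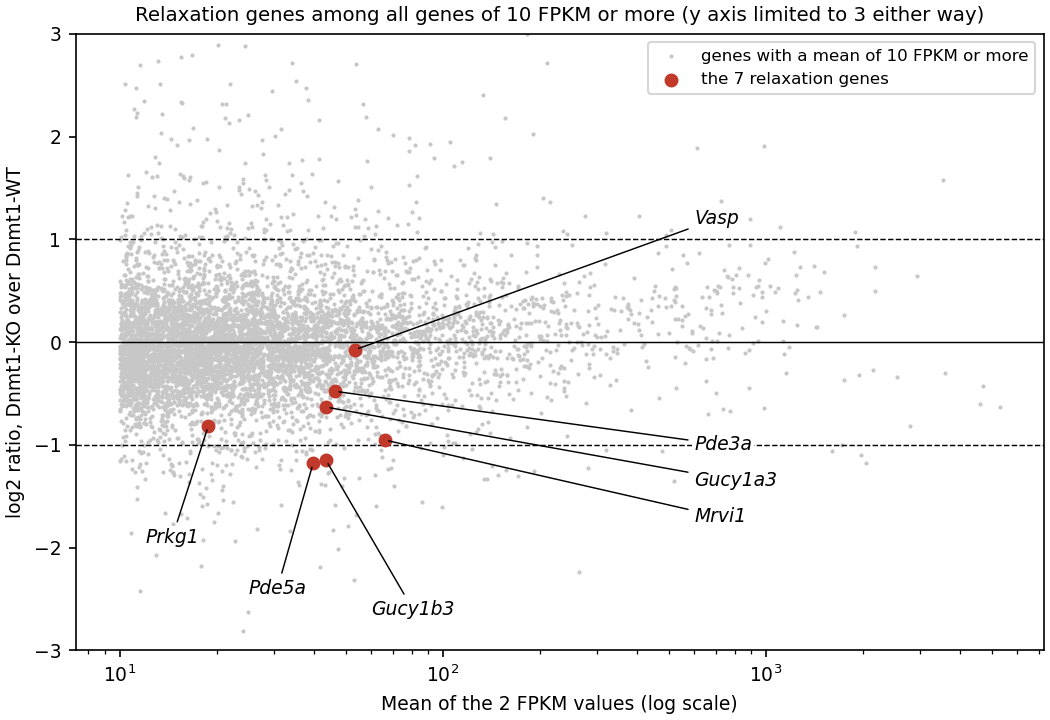
Log2 ratio of *Dnmt1*-KO to *Dnmt1*-WT against the mean of both FPKM values (log axis) for the 6505 genes with a mean of 10 FPKM or more (gray) and the 7 relaxation genes (red), with dashed lines at -1 and 1. *Pde5a* and *Gucy1b3* lie below the lower dashed line, *Vasp* lies within the bulk of genes near 0, and 43 genes fall outside the limits of 3 on the y axis.

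The order of the members therefore differed between the libraries. In *Dnmt1*-WT *Mrvi1* was highest and *Prkg1* lowest, and the other 5 genes lay between 52.85 and 59.91 FPKM. In *Dnmt1*-KO *Vasp* came first, followed by *Mrvi1*, *Pde3a*, *Gucy1a3*, *Gucy1b3*, *Pde5a* and *Prkg1*. *Vasp* was 0.629 times *Mrvi1* in *Dnmt1*-WT and 1.15 times in *Dnmt1*-KO. Whether neighbors in these orders differ beyond the spread between animals cannot be told from 1 library.

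The number of transcript variants found per gene was the same in both libraries for 5 members. It was 2 for *Gucy1a3*, *Gucy1b3* and *Prkg1*, 3 for *Pde5a* and 4 for *Mrvi1*. *Pde3a* and *Vasp*, the members with the highest ratios, had 3 variants in *Dnmt1*-WT and 4 in *Dnmt1*-KO. Among the genes with a mean of 10 FPKM or more, 10.1% had more variants in *Dnmt1*-KO, 79.3% the same number and 10.7% fewer. The file does not name the variants, so that the alpha and beta forms of the kinase could not be separated.

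Among genes with 1 FPKM or more in each library and a matched transcript, those with long transcripts or transcripts poor in G and C had lower median ratios, and most members are of this kind. *Pde3a*, *Pde5a* and *Prkg1* fall in the class of the longest transcripts when these genes are split into 10 classes of equal size, and the median log2 ratio of that class was -0.25. *Prkg1* is also in the class of the lowest GC content, where the median was -0.32. With each gene centered on its length class, *Pde5a* moved to a ratio of 0.525 and 1 member remained at or below 0.5. With centering on GC content it was *Gucy1b3* that moved to 0.525, while *Mrvi1* moved to a log2 ratio of -1.02, so that 2 members were at or below 0.5. Under either centering 3 members remained at or below 1/1.5. *Prkg1* had a ratio of 0.710 after centering on GC content, and *Pde3a* had 0.854 after centering on length. All 7 genes remained below 1 under each of the 8 alternative scalings, pseudocounts and centerings tried.

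**Figure D3:**
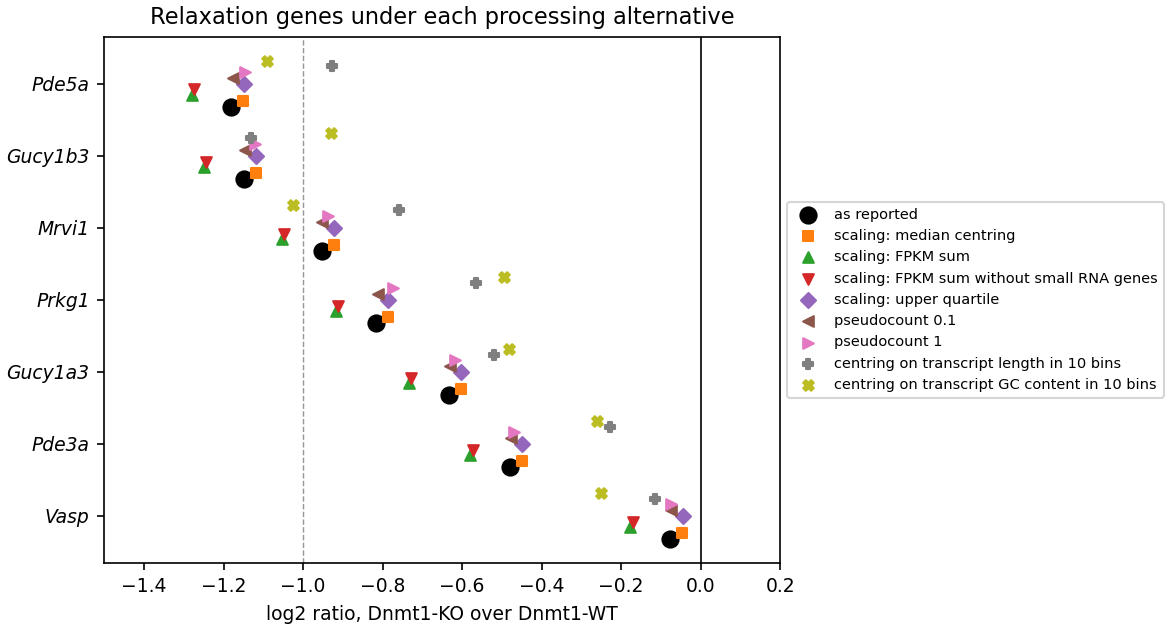
Log2 ratio of *Dnmt1*-KO to *Dnmt1*-WT for the 7 genes as reported (black circles) and under the 8 alternatives (colored symbols), with a dashed line at -1. Every symbol lies left of 0, and only symbols of *Pde5a*, *Gucy1b3* and *Mrvi1* reach the region left of -1.

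The members were set beside markers of smooth muscle cells and of the other cells of the muscle layer. All 12 smooth muscle markers were lower in *Dnmt1*-KO, with a median log2 ratio of -0.71 and ratios from 0.420 for *Synm*, an intermediate filament protein, to 0.893 for *Cnn1*, calponin, named after its value was seen. The ratios of 6 members were within this range, and only that of *Vasp* was above all 12. Of the markers, 2 had a smaller ratio than *Pde5a* and 3 a smaller one than *Gucy1b3*. The summed members equaled 1.51% of the summed smooth muscle markers in *Dnmt1*-WT and 1.36% in *Dnmt1*-KO. Against single markers the direction depended on the marker, because the members' sum was 14.4% of *Myh11*, the smooth muscle myosin heavy chain, in *Dnmt1*-WT and 18.7% in *Dnmt1*-KO, but 7.17% and 5.84% of *Acta2*, smooth muscle actin.

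Among the other cells known to carry the pathway, the markers *Kit*, *Ano1* and *Etv1* of interstitial cells of Cajal summed to 123.85 FPKM in *Dnmt1*-WT and 104.29 FPKM in *Dnmt1*-KO, with all 3 lower and ratios from 0.746 to 0.978. The markers *Pdgfra*, *P2ry1* and *Kcnn3* of PDGFRA-positive cells were all lower too, with a sum of 112.29 FPKM in *Dnmt1*-WT and 61.77 FPKM in *Dnmt1*-KO and a median ratio of 0.491. Of the 6 vascular smooth muscle and pericyte markers 4 were lower, and the median ratio of the list was 0.805. The higher ones were *Notch3*, at 2.75 and 10.77 FPKM, and *Pdgfrb*, at 8.54 and 14.47 FPKM. The lower ones were *Rgs5*, at 434.65 and 91.95 FPKM, *Abcc9*, at 94.99 and 40.26 FPKM, *Kcnj8* (ratio 0.748) and *Cspg4* (ratio 0.865). In contrast, all 6 leukocyte markers, all 7 macrophage markers and all 8 endothelial markers were higher, with sums of 26.08, 114.5 and 61.65 FPKM in *Dnmt1*-WT and of 85.48, 387.75 and 157.57 FPKM in *Dnmt1*-KO. Of the 6 platelet markers, *Ppbp* was listed at 0 in *Dnmt1*-WT and at 0.41 FPKM in *Dnmt1*-KO, 4 others were higher and *Itga2b* was lower, at 11.55 and 4.13 FPKM. Among the higher ones, *Gp9* (0.08 and 0.21 FPKM) and *Gp1ba* (0.34 and 0.41 FPKM) were below 1 FPKM in both libraries. *Gp1bb* was listed at 2.74 and 6.18 FPKM. The sum of the platelet markers was 33.26 FPKM in *Dnmt1*-WT and 65.75 FPKM in *Dnmt1*-KO, of which *Pf4* alone made up 18.55 and 54.41 FPKM. Without *Pf4* the sum was lower in *Dnmt1*-KO than in *Dnmt1*-WT. Adipocyte markers summed to 6.07 FPKM in *Dnmt1*-WT, where *Lep* was listed at 0, and to 329.76 FPKM in *Dnmt1*-KO. The 4 enteric glia markers summed to 59.23 and 88.93 FPKM, with 3 higher. The part of these cells in the values of *Vasp* and of the other members was not tested.

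**Figure D4:**
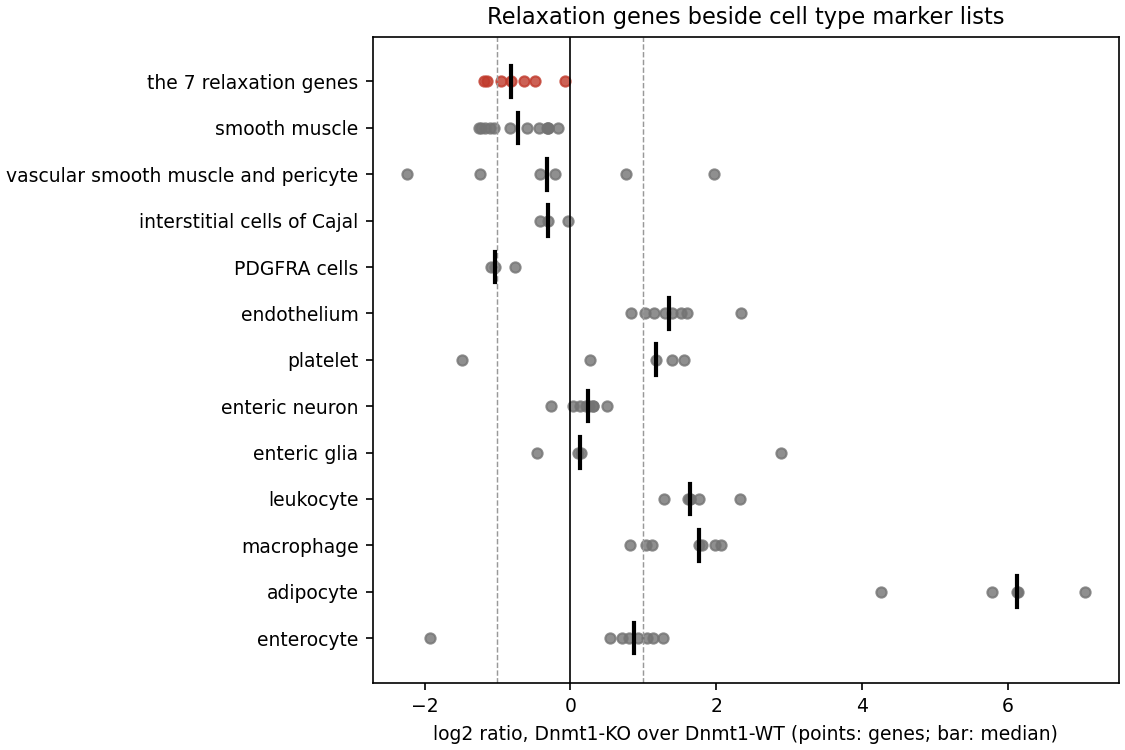
Log2 ratio of *Dnmt1*-KO to *Dnmt1*-WT for the 7 genes (red) and for each gene of 12 cell type marker lists (gray), with the median of each list as a bar and dashed lines at -1 and 1. The relaxation genes cover nearly the same range as the smooth muscle markers, from near -1.2 to near 0, while endothelial, leukocyte, macrophage and adipocyte markers lie to the right of 0.

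The rest of the cGMP pathway was followed in a list of 48 further genes, all present in the table. Of the 46 above 0 FPKM in both libraries, 23 were lower and 23 higher in *Dnmt1*-KO, with a median log2 ratio of 0.01. A ratio at or below 0.5 was found for 6, against 4.98% of all genes, and a ratio of 2 or more for 9, against 11.8%. Of the 39 with a mean of 1 FPKM or more, 6 were at or below 0.5 and 5 at 2 or more, against 3.38% and 7.99% of all genes at that level. *Nppb* and *Nppc*, which encode natriuretic peptides, were listed at 0 in *Dnmt1*-WT and at 0.41 and 0.23 FPKM in *Dnmt1*-KO. The 6 genes at or below 0.5 were 1 receptor, 2 phosphodiesterases and 3 kinase targets.

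Upstream of the cyclase, 0 of 12 genes of nitric oxide synthesis had a ratio at or below 1/1.5, against 12.6% of all genes, and 5 had one of 1.5 or more, against 19.7%. *Nos1*, the synthase of enteric neurons, was listed at 34.07 FPKM in *Dnmt1*-WT and 27.18 FPKM in *Dnmt1*-KO, a ratio of 0.798, and was named after its value was seen. The 8 enteric neuron markers summed to 757.09 FPKM in *Dnmt1*-WT and 891.82 FPKM in *Dnmt1*-KO, and 7 were higher. *Nos3*, the endothelial synthase, was listed at 1.24 and 5.25 FPKM, a ratio of 4.23, beside endothelial markers with a median ratio of 2.54. *Ddah2*, which removes an inhibitor of the synthases, was listed at 28.19 and 46.75 FPKM. *Ass1*, which recycles citrulline towards arginine, was the most abundant of this group at 133.62 and 144.03 FPKM, and *Spr*, an enzyme of tetrahydrobiopterin synthesis, was listed at 37.05 and 30.89 FPKM.

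Among the other cyclases, receptors and peptides, *Npr3*, the clearance receptor of natriuretic peptides, was listed at 8.78 FPKM in *Dnmt1*-WT and 3.18 FPKM in *Dnmt1*-KO, a ratio of 0.362. *Npr2*, the receptor cyclase for C-type natriuretic peptide, was listed at 28.17 and 24.03 FPKM. *Cyb5r3*, a reductase that keeps the heme iron of the cyclase in its reduced state, was listed at 87.52 and 133.01 FPKM. The intestinal peptides *Guca2a* (10.32 and 59.97 FPKM) and *Guca2b* (11.84 and 24.07 FPKM) and their epithelial receptor *Gucy2c* (0.68 and 2.25 FPKM) were higher in *Dnmt1*-KO. These are genes of the mucosal epithelium, and 7 of 8 enterocyte markers were higher as well, with a sum of 284.98 FPKM in *Dnmt1*-WT and 580.65 FPKM in *Dnmt1*-KO, none of them at 0. Their part in these values was not tested.

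The genes of the calcium- and calmodulin-dependent phosphodiesterases, which degrade cGMP and cAMP, were each lower than *Pde5a* in both libraries. *Pde1a*, named after its value was seen, was listed at 19.11 FPKM in *Dnmt1*-WT and 10.54 FPKM in *Dnmt1*-KO, a ratio of 0.552. *Pde1c* was listed at 6.22 FPKM in *Dnmt1*-WT and 0.88 FPKM in *Dnmt1*-KO, a ratio of 0.141, and *Pde1b* at 20.09 and 8.8 FPKM, a ratio of 0.438. *Pde9a*, another cGMP-specific enzyme, was listed at 34.19 and 23.7 FPKM, a ratio of 0.693. *Pde6d*, a prenyl-binding protein named as a subunit of the photoreceptor enzyme, was listed at 24.26 and 19.78 FPKM, while *Pde2a*, an enzyme stimulated by cGMP, was at 19.65 and 21.82 FPKM.

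Known targets of the kinase were 3 of the 6 genes of this list at or below 0.5. *Ppp1r12a*, which encodes the myosin-binding subunit of myosin light-chain phosphatase, was listed at 242.83 FPKM in *Dnmt1*-WT and 98.36 FPKM in *Dnmt1*-KO, a ratio of 0.405. *Pln*, phospholamban, the inhibitor of the calcium pump of the sarcoplasmic reticulum, was listed at 68.13 and 14.91 FPKM, a ratio of 0.219. *Rgs2*, which limits signaling by contractile receptors, was listed at 32.68 and 15.65 FPKM, a ratio of 0.479. *Hspb6*, a small heat shock protein that is phosphorylated during relaxation, was listed at 284.21 and 197.3 FPKM, and *Rhoa*, a promoter of contraction, at 189.86 and 184.98 FPKM. *Itpr1*, the IP3 receptor bound by IRAG, and *Kcnma1*, the pore of the large-conductance potassium channel, were named after their values were seen and had ratios of 0.610 and 0.518. The single gene of this group with a mean of at least 1 FPKM and a ratio of 2 or more was *Trpc6*, a cation channel inhibited by the kinase, at 3.91 FPKM in *Dnmt1*-WT and 19.93 FPKM in *Dnmt1*-KO.

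**Figure D5:**
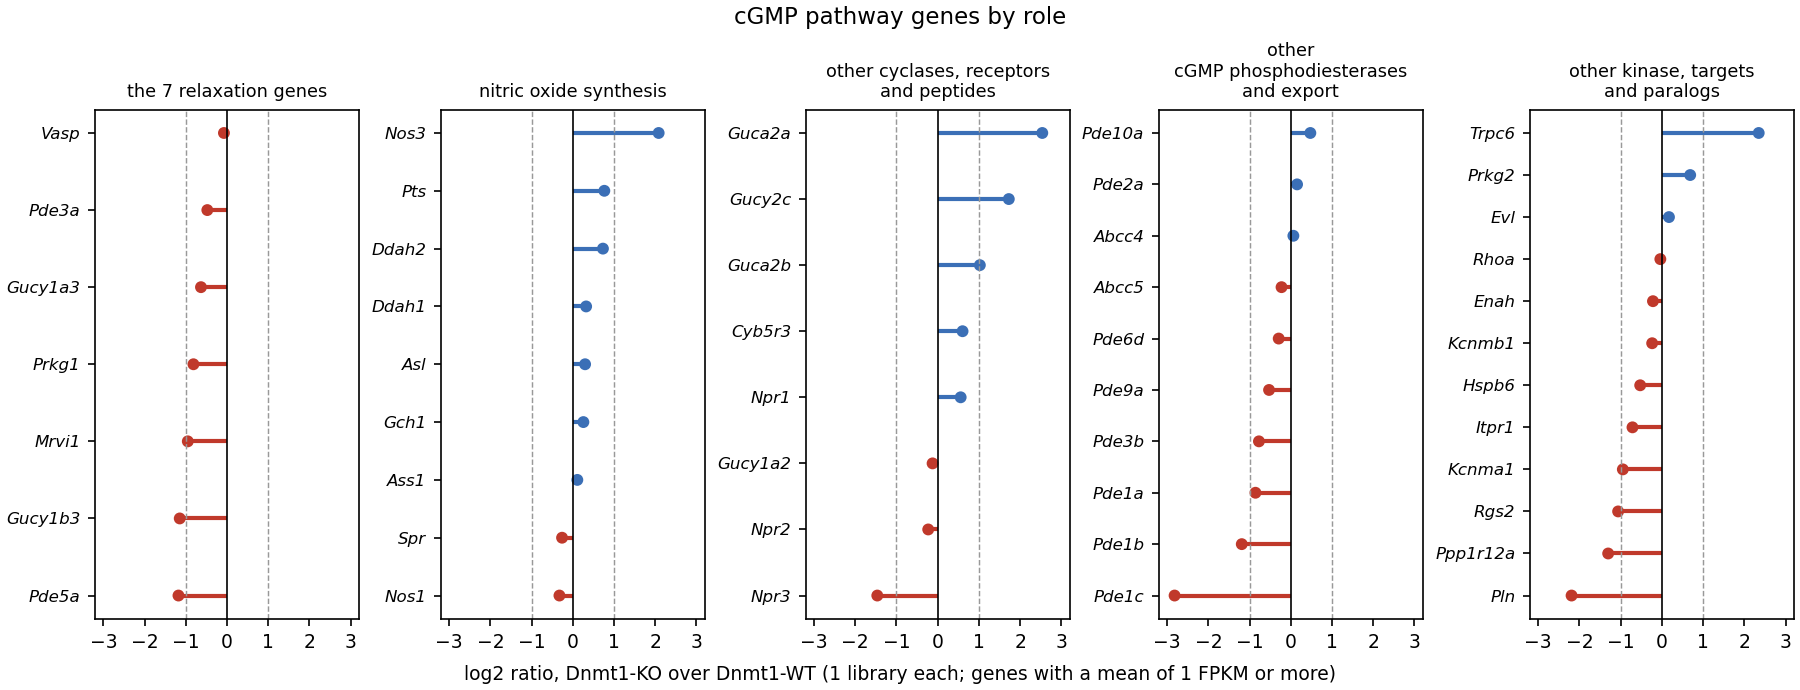
Log2 ratio of *Dnmt1*-KO to *Dnmt1*-WT for the 7 relaxation genes and for the 39 other cGMP pathway genes with a mean of 1 FPKM or more, by role, with dashed lines at -1 and 1. Genes of nitric oxide synthesis lie mostly to the right of 0, and the 6 other pathway genes with a ratio at or below 0.5 are *Npr3*, *Pde1b*, *Pde1c*, *Rgs2*, *Ppp1r12a* and *Pln*.

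The cAMP arm, the parallel route to relaxation in which PDE3A acts, was followed in 23 genes, all above 0 FPKM in both libraries. Of these, 16 were lower in *Dnmt1*-KO, against 49.1% of all genes, with a median log2 ratio of -0.18. A ratio at or below 0.5 was found for 1, *Adora2b*, at 0.79 and 0.23 FPKM, against 4.98% of all genes. A ratio of 2 or more was found for 1, *Vipr1*, at 0.45 and 0.99 FPKM, against 11.8%, and both were named after their values were seen. The catalytic subunits of protein kinase A were listed at 70.02 and 65.41 FPKM for *Prkaca* and at 98.31 and 61.3 FPKM for *Prkacb*, and the regulatory subunit *Prkar1a* at 187.2 and 176.1 FPKM. *Adcy5*, an adenylyl cyclase, was listed at 76.89 and 55.67 FPKM and *Adcy6* at 14.7 and 17.44 FPKM. *Gnas*, which encodes the stimulatory G protein that drives these cyclases, was listed at 593.99 and 660.93 FPKM.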

How the data were processed

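Total RNA of jejunal tunica muscularis was sequenced after TruSeq RNA library preparation. The submitters' processing notes name TopHat 1.4.1, Cufflinks 2.0.2 and the mm10 build. The authors' deposited table gives 1 FPKM value per gene symbol and library, and a count of transcript variants found in each library. It also holds the authors' ratio of both genotypes, which was not used. Values above 0 began at 0.03 FPKM in each library. No column of values lacked a sample.

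Samples were grouped by the genotype label. Because each genotype has 1 library, ratios of FPKM were formed without rescaling or pseudocount, over genes above 0 in both libraries, and no test was made. The members and gene lists were chosen with earlier results of these data known. The rule for named genes, beside the members and *Dnmt1*, took those that were among the 3 most abundant of their role, or had a mean of at least 1 FPKM and a ratio at or below 0.5 or of 2 or more. All genes that it took from the cGMP and cAMP lists are named, whereas marker lists are given by counts and sums, with a few of their genes chosen after the values were seen. Genes named outside this rule are marked as such, or are given to complete a list of markers or of genes at 0. Gene positions came from GENCODE M21 and promoter windows from RefSeq, both on GRCm38. The longest GENCODE transcript gave length and GC content for 17953 symbols. Counting past a fold was tested on simulated data, and the outcome is not given here. Python 3.11.15, numpy 2.4.6, pandas 2.3.3 and matplotlib 3.10.9 were used.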

Additional observations from a re-analysis of the deposited data

How the results depend on the processing

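Every member remained lower in *Dnmt1*-KO under the 4 other scalings, pseudocounts of 0.1 and 1, and centering on transcript length or GC content, the last of which were chosen after seeing the data. The members' median log2 ratio of -0.82 moved to -0.79 with median centering and with upper quartile scaling, -0.92 with the FPKM sum, -0.91 with the FPKM sum without small RNA genes, -0.81 and -0.77 with pseudocounts of 0.1 and 1, -0.565 with centering on length and -0.49 with centering on GC content. Scaling by the FPKM sum shifts all log2 ratios by -0.10. With either FPKM sum 3 members were at or below 0.5, against 2 as reported, with *Mrvi1* at a log2 ratio of -1.05 among them. Centering on length left 1 member at or below 0.5 and 3 at or below 1/1.5, and centering on GC content also left 3 at or below 1/1.5, because the classes that hold the long and GC-poor members have medians below 0. In the cGMP list, the genes at 2 or more numbered 3 with a pseudocount of 1, 5 with a mean of at least 1 FPKM required and 3 with at least 10 FPKM, where 6 had a ratio of 1.5 or more. In the cAMP list, 5 genes were at or below 1/1.5 with either FPKM sum and with centering on GC content, against 3 as reported, and 2 were at or below 0.5 with centering on GC content. There, 0 genes were at or below 0.5 with a pseudocount of 1 or a minimum mean of 1 or 10 FPKM, and 0 at 1.5 times or more under the same settings. The number of cAMP genes at 2 or more was 0 under those settings and with a pseudocount of 0.1. At a minimum mean of 10 FPKM, 10 cAMP genes were below 1 and 1 was at or below 1/1.5. No paired analysis was possible because each genotype has 1 library, and for the same reason no library could be left out. Depth per gene is unknown, and ratios of genes under 1 FPKM carry little weight.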

Other observations

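Among matched genes with 1 FPKM or more in each library, the median log2 ratio of *Dnmt1*-KO to *Dnmt1*-WT went down with transcript length, from 0.23 in the class of 1268 genes with the shortest transcripts to -0.25 in the class of 1270 genes with transcripts of 6892 bases or more. It went up with GC content, from -0.32 in the class of the lowest content to 0.18 in the class of the highest. These classes were formed after the data were seen, and *Pde3a*, with a transcript of 12302 bases and a GC content of 43.0%, lies towards the low end of both trends, whereas *Vasp*, with 2215 bases and 58.0%, lies towards the high end. The trends describe 2 libraries, and a difference between their preparations cannot be told apart from genotype.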
